A study of Mus musculus with 9 samples.

Results

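The genes described here are 10 genes of MHC class I antigen presentation: B2m, H2-K1, H2-D1, Tap1, Tap2, Tapbp, Psmb8, Psmb9, Psmb10 and Erap1. They were chosen by name and by no threshold on a measured value, though with earlier results of these data known, and all 10 were found among the 38293 genes of the RNA-seq count table. The counts come from E14, a mouse embryonic stem cell line of the 129/Ola strain, grown in 3 culture states with 3 libraries each.

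MHC class I molecules carry peptides cut from the cell's own proteins to the surface, where cytotoxic T cells read them. Proteins are cut by the proteasome, whose catalytic subunits Psmb5, Psmb6 and Psmb7 can be replaced by the immunoproteasome subunits Psmb8, Psmb9 and Psmb10, and the peptides are pumped into the endoplasmic reticulum by Tap1 and Tap2, trimmed by Erap1 and loaded with the help of tapasin (Tapbp) onto a heavy chain such as H2-K1 or H2-D1 bound to the light chain beta-2-microglobulin (B2m). Most of these genes are known as interferon-induced genes, and pluripotent cells are known for low surface class I.

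All 9 libraries come from this same line with no genetic change, so by the labels the states differ in their culture conditions. The mESC-2i cells, labelled naive, were kept without serum in N2B27 with 1 μM of the MEK inhibitor PD0325901, 3 μM of the GSK3 inhibitor CHIR99021 and 10 ng/mL LIF. The mESC-ser cells, labelled primed, grew on gelatin in DMEM with 15% foetal bovine serum and 10 ng/mL LIF and without either inhibitor. The EpiLC (epiblast-like cells) were derived from naive cells on fibronectin in N2B27 with 20 ng/mL activin A, 12 ng/mL bFGF and 1% KSR, for a time that is not given in the sources used here. The mESC-ser cells are thus a separate culture and not a stage on the way to EpiLC. Rises and falls from one state to another name comparisons of states and not a course in time. The labels name no interferon in any medium. Medium, growth surface and added agents changed together, so the part of any of them cannot be told apart, and all values hold for this line only.

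The libraries held 7187576 to 16829549 counts over genes. Pou5f1 and the other 7 pluripotency markers were detected in all 9 libraries, at a summed level of 2948 to 3808 CPM (counts scaled to the size of the library) in mESC-2i, of 3607 to 3753 CPM in mESC-ser and of 3787 to 3994 CPM in EpiLC. Within these sums single markers moved in both directions. From mESC-2i to EpiLC Nanog fell from a mean of 650 to 61.3 CPM and Sox2 from 468 to 61.8 CPM. Utf1 rose from 27.9 to 901 CPM and Lin28a from 134 to 457 CPM. Immune cells would bring class I transcripts with them, and of 8 immune markers Adgre1 and Lyz2 had no count in any library and Ptprc had 0 or 1 count. The summed immune list stood at 58.6 to 63.1, 22.3 to 24.4 and 44.7 to 47.6 CPM in mESC-2i, mESC-ser and EpiLC, carried mainly by Cd68, Itgam and Cd3e, and the 9 fibroblast markers summed to 56.0 to 60.7, 67.4 to 87.7 and 42.3 to 46.8 CPM. Neither sum was highest in EpiLC, but single markers were: Itgam averaged 18.3 CPM there against 7.78 in mESC-2i and 5.50 in mESC-ser, Thy1 29.5 against 3.05 and 4.41, and Dcn 8.51 against 0.470 and 0.165. In EpiLC against mESC-2i 1 of 3 immune markers tested and 2 of 7 fibroblast markers were called higher, by the test given below, and 2 and 5 were called lower. The part of such cells in the results was not tested.

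Most of the class I genes were at their highest in EpiLC, while B2m was highest in mESC-2i and Erap1 did not pass the test between EpiLC and mESC-ser. Against mESC-2i, 9 of the 10 genes rose in EpiLC and B2m fell, against mESC-ser 8 rose and none fell (all 10 log2 fold changes were above 0), and in mESC-ser against mESC-2i 5 rose, 2 fell and 3 did not pass the test. The largest difference was that of Psmb10, 32.3-fold higher in EpiLC than in mESC-2i. The test was edgeR's quasi-likelihood F-test across all genes of each pair of states, and a gene was called changed at an adjusted p (Benjamini-Hochberg) under 0.05 together with a log2 fold change over 0.5 in size. In bulk libraries such as these, fewer cells that express a gene and less RNA per cell cannot be told apart.

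These counts stand against wide changes between the states. In mESC-ser against mESC-2i, 56.2% of 15728 genes tested were called, 25.9% as higher and 30.3% as lower, and the median log2 fold change was −0.04 over all genes and 0.84 over the 10. In EpiLC against mESC-2i, 69.8% of 15378 genes were called, 32% higher and 37.8% lower, with medians of −0.11 over all genes and 2.36 over the 10. In EpiLC against mESC-ser, 73.3% of 15345 genes were called, 35.5% higher and 37.8% lower, with medians of −0.07 and 1.73. Tap2, Psmb8 and Psmb9 had few counts in mESC-2i and raise the medians of both comparisons with it. Without them, at 10 or more counts in every library, the medians over the class I genes left were 0.39 for mESC-ser and 1.59 for EpiLC. The 3 libraries of one state did not overlap with the 3 of the other, in CPM, for any of the 10 genes in any of the comparisons, while this held for 70.7%, 81.8% and 85.7% of all tested genes in the same order.

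The library scaling moved with the state: the TMM factors were 1.09 to 1.13 in mESC-2i, 1.03 to 1.04 in mESC-ser and 0.865 to 0.871 in EpiLC. Scaled by total counts alone, the median of all genes was −0.45 for EpiLC against mESC-2i and −0.41 for the comparison with mESC-ser, and the calls split into 3709 higher and 7284 lower, and 4294 higher and 7195 lower, where TMM gave 4922 and 5810, and 5444 and 5802. The class I genes kept 9 higher and 1 lower, and 8 higher, under that scaling, with medians of 2.02 and 1.39.

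**Figure D1:**
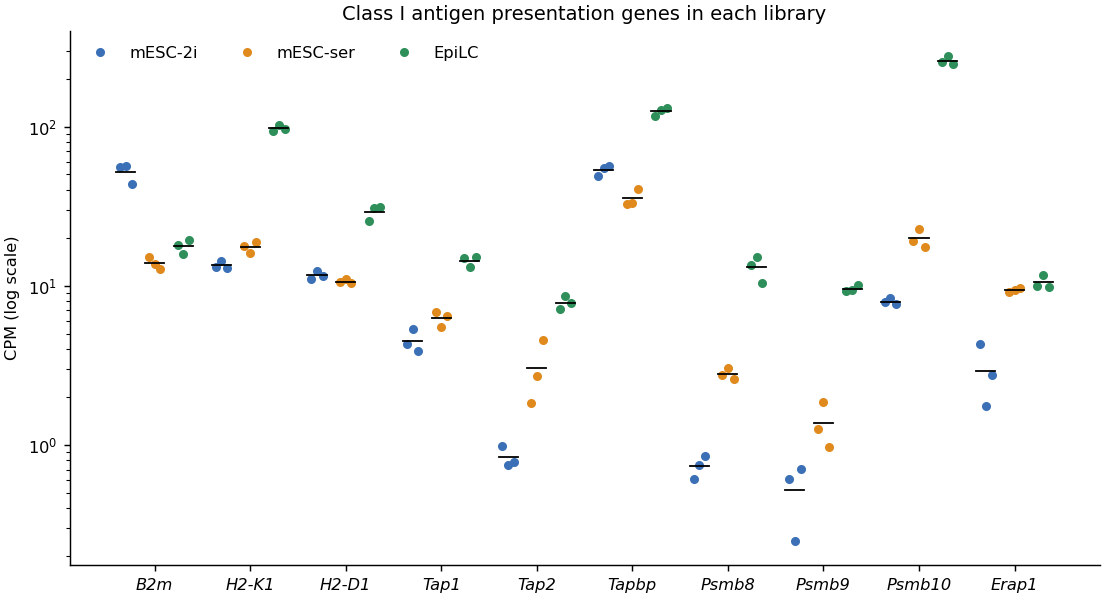
CPM of the 10 genes in each library on a log axis, with points for the 3 libraries of each state and a black line at their mean. In EpiLC the points lie above both other states for every gene but B2m (for Erap1 the difference from mESC-ser was not called and turned to −0.09 on the log2 scale with total-count scaling), and Psmb10 goes from 7.64 to 8.34 CPM in mESC-2i to 246 to 279 CPM in EpiLC.

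In the mouse genome (mm10, GENCODE M21 annotation) 7 of the 10 genes lie in or beside the MHC on chromosome 17, from Tapbp (chr17:33915899-33929292, forward strand) and H2-K1 (chr17:33996017-34000347, reverse) through Psmb9 (chr17:34181987-34187764, reverse), Tap1 (chr17:34187553-34197225, forward), Psmb8 (chr17:34197721-34201454, forward) and Tap2 (chr17:34203527-34216321, forward) to H2-D1 (chr17:35262730-35267499, forward). The other 3 lie elsewhere: B2m at chr2:122147686-122153083 on the forward strand, Psmb10 at chr8:105935735-105938444 on the reverse strand and Erap1 at chr13:74639568-74693201 on the forward strand. Tap1 and Psmb9 start next to each other on opposite strands. The library kit does not mark strand, so reads from overlapping genes on opposite strands cannot be told apart.

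The reads were at most 50 bases long, and the share of a gene's 50-base transcript stretches that are also found in transcripts of another gene was used to see how far its counts could be mixed with those of others. It was 0% for B2m and Psmb10, 9.63% for H2-K1 and 12.8% for H2-D1, mostly with each other and with H2-Q genes of the same family. It was 3.33% for Tap1, 4.19% for Psmb9, 10.7% for Erap1 (shared with Cast on the opposite strand), 11.6% for Tap2, 11.9% for Psmb8 and 23.2% for Tapbp (mostly with Gm19412 on the opposite strand). The counts of Tapbp are by this measure the least certain in their assignment, and how the authors' counting treated such reads is not given in the sources used here.

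Class I heavy chain genes and B2m are known to be read through a shared promoter module, in which a κB site, an interferon-stimulated response element (ISRE) and the X2 and Y boxes lie upstream of the start. The promoter windows below, of 250 bases before to 50 bases after a RefSeq start (GRCm38.p6), are shown for the 3 genes of the class I molecule itself, because all 3 hold κB, X2 and Y box matches while B2m moved differently from the heavy chains, for Tap1, because its window is also most of that of Psmb9, and for Psmb10, because it changed most. Capitals mark matches, on either strand, to the κB motif GGGNNTTNCC, the ISRE motif GAAANNGAAA, the X2 box TGACG and the Y box ATTGG, where N is any base. No marked site overlapped another in these windows.
B2m, chr2:122147437-122147736, forward: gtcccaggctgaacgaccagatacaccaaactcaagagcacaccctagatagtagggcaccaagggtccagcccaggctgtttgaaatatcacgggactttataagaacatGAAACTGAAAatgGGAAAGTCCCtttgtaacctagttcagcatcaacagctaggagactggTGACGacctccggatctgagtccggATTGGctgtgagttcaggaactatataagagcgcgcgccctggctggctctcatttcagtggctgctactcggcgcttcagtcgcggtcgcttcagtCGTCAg
H2-K1, chr17:34000298-34000597, reverse: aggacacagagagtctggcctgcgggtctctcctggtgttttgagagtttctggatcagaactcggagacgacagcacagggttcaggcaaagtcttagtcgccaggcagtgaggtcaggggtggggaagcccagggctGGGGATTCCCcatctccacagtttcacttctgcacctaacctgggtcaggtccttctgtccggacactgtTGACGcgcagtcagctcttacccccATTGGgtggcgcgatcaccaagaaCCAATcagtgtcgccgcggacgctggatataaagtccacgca
H2-D1, chr17:35262844-35263143, forward: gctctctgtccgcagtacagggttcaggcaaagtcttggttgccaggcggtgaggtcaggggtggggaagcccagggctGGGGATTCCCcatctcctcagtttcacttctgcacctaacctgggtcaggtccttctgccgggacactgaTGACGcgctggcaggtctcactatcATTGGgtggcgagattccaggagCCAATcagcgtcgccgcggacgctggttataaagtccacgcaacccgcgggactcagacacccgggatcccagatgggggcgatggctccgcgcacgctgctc
Tap1, chr17:34187306-34187605, forward: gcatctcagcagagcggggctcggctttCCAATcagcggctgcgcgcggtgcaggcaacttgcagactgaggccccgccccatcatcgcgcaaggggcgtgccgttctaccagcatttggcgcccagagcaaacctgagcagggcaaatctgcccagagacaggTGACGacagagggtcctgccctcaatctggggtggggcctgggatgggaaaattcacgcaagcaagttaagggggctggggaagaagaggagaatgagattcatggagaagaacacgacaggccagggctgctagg
Psmb10, chr8:105938343-105938642, reverse: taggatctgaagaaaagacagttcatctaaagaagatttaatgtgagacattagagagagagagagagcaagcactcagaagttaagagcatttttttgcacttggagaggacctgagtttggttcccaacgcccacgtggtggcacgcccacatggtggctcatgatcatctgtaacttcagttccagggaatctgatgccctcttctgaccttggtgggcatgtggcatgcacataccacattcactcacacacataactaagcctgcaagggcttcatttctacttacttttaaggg

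Windows were at hand for 9 of the 10 genes (Tap2 was not matched), with 2 starts for H2-K1. The κB motif was found in B2m, H2-K1 and H2-D1 and is held by 4.79% of all 32851 windows of this length. The X2 box was found in B2m, H2-K1, H2-D1, Tap1 and Psmb9 (20.8% of all windows) and the Y box in these 5 and Tapbp (37.4%). In B2m, H2-K1 and H2-D1 the first base of the X2 box lies 25 bases before that of the Y box, a spacing seen after the windows were read and held by 31 of all windows (0.0944%), among them that of H2-M3, another class I heavy chain gene. The ISRE motif in these exact letters was found in B2m and Erap1 (3.44%). The H2-K1 and H2-D1 windows held no exact match, but looser forms of the ISRE were not searched, so its absence there is not shown. None of these 4 motifs was found in the Psmb10 window, which says only that these letters are not in it. A match is a stretch of letters, and binding was not measured here.

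B2m, the light chain that every classical class I molecule needs, was the only one of the 10 genes to fall from mESC-2i to both other states. It stood at 55.9, 56.7 and 43.7 CPM in the mESC-2i libraries, at 15.2, 13.7 and 12.7 CPM in mESC-ser and at 18.0, 15.8 and 19.5 CPM in EpiLC. The lowest mESC-2i library was thus well above every library of the other states. B2m was 3.90-fold lower in mESC-ser than in mESC-2i (log2 fold change −1.97, SE 0.14, edgeR adjusted p = 1.04e-06) and 2.97-fold lower in EpiLC (−1.57, SE 0.14, adjusted p = 1.82e-06, or −2.20 with a correction for gene length and GC content). Between EpiLC and mESC-ser the log2 difference was 0.44 (SE 0.12, edgeR adjusted p = 0.00318), below the fold threshold. With that correction it was −0.24 (adjusted p = 0.0578), so the order of B2m in these 2 states is not settled by the data.

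The classical heavy chains, which hold the peptide, went the other way in EpiLC against mESC-2i. H2-K1 stood at 13.1, 14.3 and 12.9 CPM in mESC-2i, at 17.8, 16.0 and 18.9 CPM in mESC-ser and at 94.2, 102 and 96.9 CPM in EpiLC. H2-D1 stood at 11.1, 12.3 and 11.5 CPM in mESC-2i, at 10.5, 10.9 and 10.3 CPM in mESC-ser and at 25.6, 30.6 and 31.3 CPM in EpiLC. Both were low in both stem cell states, and every EpiLC library lay above all others. From mESC-2i to EpiLC H2-K1 rose 7.14-fold (log2 fold change 2.84, SE 0.10, edgeR adjusted p = 4.33e-09) and H2-D1 2.48-fold (1.31, SE 0.13, adjusted p = 4.34e-06), and against mESC-ser they rose 5.86-fold and 2.93-fold (log2 fold change 1.55 for H2-D1, or 0.94 with the length and GC correction). In mESC-ser against mESC-2i neither was called: the log2 fold change was 0.33 for H2-K1 (SE 0.13, edgeR adjusted p = 0.0392) and −0.19 for H2-D1 (SE 0.13, adjusted p = 0.202). The correction for length and GC brought H2-K1 to 0.66 (adjusted p = 0.000305), a call, and H2-D1 to 0.12 (adjusted p = 0.368).

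With heavy chains higher and light chain lower in EpiLC than in mESC-2i, the ratio of their transcripts differed widely between the states. Per length, in RPKM (CPM divided by the exonic length in kilobases), the sum of H2-K1 and H2-D1 was 0.152 ± 0.0203 of B2m in mESC-2i, 0.630 ± 0.0682 of it in mESC-ser and 2.17 ± 0.302 times B2m in EpiLC (SD, n = 3 each). H2-K1 itself was 1.02 ± 0.0262 times H2-D1 in mESC-2i, 1.46 ± 0.163 times in mESC-ser and 2.95 ± 0.256 times in EpiLC (SD, n = 3). These ratios are taken within a library, so no scaling between libraries enters them, and the libraries of the 3 states did not overlap in either ratio. Trends of a library with gene length and GC content do enter them. With RPKM corrected for these, after the data were seen, the ratios to B2m were 0.128 ± 0.00530, 0.651 ± 0.0524 and 2.50 ± 0.223 (SD, n = 3). Those of H2-K1 to H2-D1 were 0.977 ± 0.0239, 1.43 ± 0.165 and 3.14 ± 0.276 (SD, n = 3), all in the same order of states. They are ratios of transcripts, and protein was not measured. No test was made of them, and an exact permutation test of 3 libraries against 3 cannot go below p = 0.10.

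The transporter genes rose in EpiLC, and Tap2 was also higher in mESC-ser than in mESC-2i. Tap1 stood at 4.30, 5.34 and 3.90 CPM in mESC-2i, at 6.79, 5.52 and 6.49 CPM in mESC-ser and at 15.0, 13.0 and 15.1 CPM in EpiLC. Tap2, its partner in the transporter, stood at 0.982, 0.750 and 0.780 CPM (8, 9 and 10 counts) in mESC-2i, at 1.82, 2.72 and 4.54 CPM in mESC-ser and at 7.11, 8.57 and 7.79 CPM in EpiLC. The mESC-ser libraries spread widely for Tap2. Tap1 rose 3.13-fold from mESC-2i to EpiLC (log2 fold change 1.65, SE 0.17, edgeR adjusted p = 5.69e-06) and Tap2 9.31-fold (3.22, SE 0.23, adjusted p = 4.80e-07). From mESC-2i to mESC-ser Tap2 rose 3.57-fold (1.84, SE 0.39, edgeR adjusted p = 0.00195), while Tap1 differed by 0.42 on the log2 scale (SE 0.18, adjusted p = 0.0614) and was not called. Without mESC-2i replicate 2 Tap1 was called at 0.56, and without mESC-ser replicate 2 at 0.54.

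Tapasin, the chaperone that ties the transporter to empty class I molecules, was the second most abundant of the 10 transcripts per length in mESC-2i. Tapbp stood at 49.2, 54.8 and 56.4 CPM in mESC-2i, at 32.6, 33.2 and 40.6 CPM in mESC-ser and at 117, 128 and 131 CPM in EpiLC, so that mESC-ser was the lowest state. It fell 1.57-fold from mESC-2i to mESC-ser (log2 fold change −0.65, SE 0.12, edgeR adjusted p = 0.000697) and rose 2.31-fold from mESC-2i to EpiLC (1.21, SE 0.09, adjusted p = 8.76e-07). After the length and GC correction the fall to mESC-ser was −0.45 and no longer passed the fold threshold (edgeR adjusted p = 0.000664).

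The immunoproteasome subunits gave the largest changes of the set in EpiLC against mESC-2i, though not in each of the other comparisons. All 3 were called higher in each of the 3 comparisons, with mESC-ser between mESC-2i and EpiLC in level. Psmb8 stood at 0.614, 0.750 and 0.858 CPM in mESC-2i (5, 9 and 11 counts), at 2.73, 3.05 and 2.58 CPM in mESC-ser and at 13.6, 15.1 and 10.4 CPM in EpiLC. Psmb9 stood at 0.614, 0.250 and 0.702 CPM in mESC-2i (5, 3 and 9 counts), at 1.26, 1.87 and 0.976 CPM in mESC-ser and at 9.26, 9.44 and 10.05 CPM in EpiLC. Psmb10 stood at 7.86, 8.34 and 7.64 CPM in mESC-2i, at 19.1, 22.7 and 17.6 CPM in mESC-ser and at 254, 279 and 246 CPM in EpiLC. Psmb8 and Psmb9 were near the detection limit in mESC-2i, whereas Psmb10 had 64 to 100 counts there and gives the firmest of the 3 values.

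From mESC-2i to EpiLC Psmb10 rose 32.3-fold (log2 fold change 5.01, SE 0.11, edgeR adjusted p = 4.15e-10), Psmb9 17.9-fold (4.16, SE 0.28, adjusted p = 3.15e-07) and Psmb8 16.8-fold (4.07, SE 0.25, adjusted p = 1.45e-07). From mESC-2i to mESC-ser the rises were smaller: 3.50-fold for Psmb8 (1.81, SE 0.26, edgeR adjusted p = 0.000149), 2.45-fold for Psmb9 (1.29, SE 0.43, adjusted p = 0.0210) and 2.39-fold for Psmb10 (1.26, SE 0.15, adjusted p = 3.21e-05). The Psmb9 call in that comparison was lost without mESC-2i replicate 2 (log2 fold change 0.92, edgeR adjusted p = 0.0899) and without mESC-ser replicate 2 (1.07, adjusted p = 0.0661). From mESC-ser to EpiLC the log2 fold changes were 3.81 for Psmb10 (SE 0.11), 2.94 for Psmb9 (SE 0.21) and 2.32 for Psmb8 (SE 0.18), with edgeR adjusted p of 3.06e-14, 1.13e-09 and 2.82e-09. The length and GC correction lowered that of Psmb10 to 2.95.

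Each immunoproteasome subunit takes the place of a constitutive one in the assembled particle, so the pairs were compared per length. Psmb5, Psmb6 and Psmb7 also rose in EpiLC against mESC-2i, by 4.72-fold, 2.67-fold and 2.41-fold (log2 fold change 2.24 for Psmb5, or 1.45 with the length and GC correction). Of the 3 only Psmb5 was called in mESC-ser against mESC-2i (1.52-fold lower), and that call was lost with the correction (log2 fold change −0.23, edgeR adjusted p = 0.0750). Psmb10 made up 9.19 ± 1.16% of the RPKM of Psmb10 and Psmb7 in mESC-2i, 18.1 ± 1.02% of it in mESC-ser and 57.1 ± 1.07% of it in EpiLC (SD, n = 3). With RPKM corrected for length and GC content, an alternative added after the data were seen, these shares were 9.52 ± 1.64%, 23.3 ± 1.88% and 48.4 ± 0.682% (SD, n = 3). The order of the states stayed, but whether Psmb10 or Psmb7 transcripts were the more numerous in EpiLC depended on the correction. It depended also on the exonic lengths, 1705 bases for Psmb10 and 3421 for Psmb7. Before division by length Psmb7 was the higher in EpiLC, at 391 CPM against 260 CPM for Psmb10. The lengths count all annotated exons, and which transcripts were in use was not measured. Psmb9 made up 0.121 ± 0.0708%, 0.340 ± 0.0892% and 0.761 ± 0.0168% of Psmb9 and Psmb6 (SD, n = 3), in the same order of states.

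Psmb8 had another order before the correction. It made up 0.444 ± 0.145% of Psmb8 and Psmb5 in mESC-2i, 2.33 ± 0.220% of it in mESC-ser and 1.55 ± 0.182% of it in EpiLC (SD, n = 3), so its uncorrected share was highest in mESC-ser although its own level was highest in EpiLC. With the correction the shares were 0.361 ± 0.0890%, 1.91 ± 0.180% and 2.29 ± 0.307% (SD, n = 3), so EpiLC came first and its libraries overlapped with those of mESC-ser. Psmb5 rose 7.45-fold from mESC-ser to EpiLC, a log2 fold change of 2.90 that the correction brought to 1.68. The order of mESC-ser and EpiLC in the Psmb8 share is thus not settled by the data. Over all 6 catalytic subunits the immunoproteasome share was 2.23 ± 0.366% for mESC-2i, 6.14 ± 0.496% for mESC-ser and 18.5 ± 0.702% for EpiLC (SD, n = 3), nearly all of it Psmb10 in EpiLC. Uncorrected, the libraries of the states did not overlap in any of these shares, and as above no test was made of them.

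**Figure D2:**
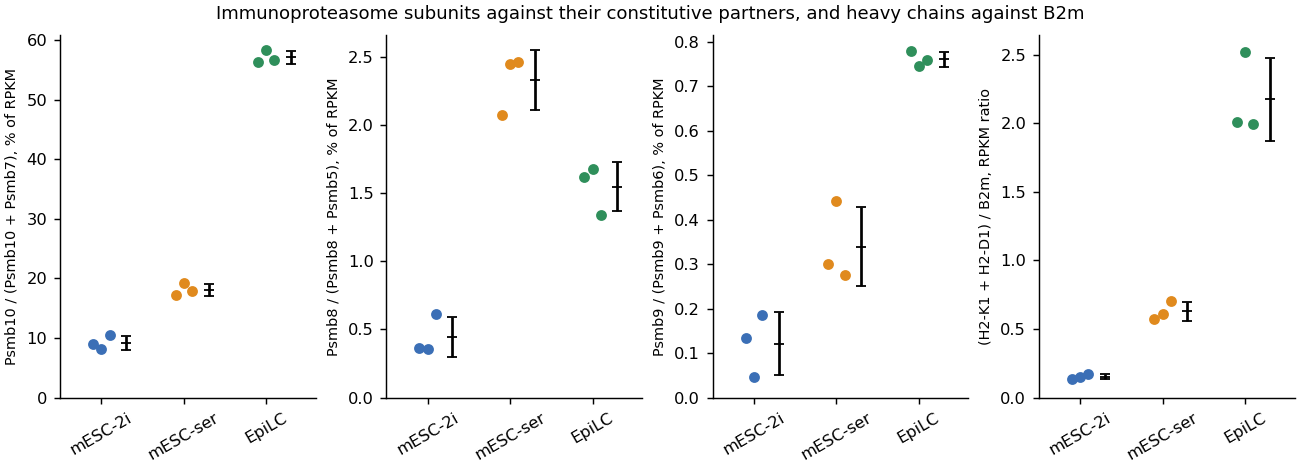
RPKM share of each immunoproteasome subunit in the sum with its constitutive partner (%), and the ratio of H2-K1 plus H2-D1 to B2m, in each library, with mean and SD as black bars (n = 3). The values are uncorrected: the Psmb10 share passes from 9.19% to 57.1% (48.4% with the length and GC correction), the Psmb8 share is higher in mESC-ser than in EpiLC (an order that turned with that correction, to 1.91% and 2.29%), and the heavy chain ratio goes from 0.152 to 2.17 (0.128 and 2.50 with that correction).

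Erap1, the aminopeptidase that trims peptides to fit the class I groove, was higher in mESC-ser and in EpiLC than in mESC-2i. Its uncorrected levels in mESC-ser and EpiLC lay close together. It stood at 4.30, 1.75 and 2.73 CPM in mESC-2i, at 9.10, 9.33 and 9.70 CPM in mESC-ser and at 9.93, 11.7 and 9.80 CPM in EpiLC. It rose 3.19-fold from mESC-2i to mESC-ser (log2 fold change 1.68, SE 0.25, edgeR adjusted p = 0.000208) and 3.67-fold from mESC-2i to EpiLC (1.88, SE 0.27, adjusted p = 7.85e-05). Between EpiLC and mESC-ser the log2 difference was 0.25 (SE 0.13, edgeR adjusted p = 0.0937). That value depended on the processing: it was 1.08 and called after the correction for length and GC (edgeR adjusted p = 2.25e-06), and −0.09 with total-count scaling. Erap1 is the longest of the 10 genes (7280 exonic bases), B2m the shortest (860 bases).

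Gene length matters in these comparisons, since the log2 fold change of a gene was related to its exonic length over all protein-coding genes. Spearman's rho was 0.280 in mESC-ser against mESC-2i (13292 genes), −0.300 in EpiLC against mESC-2i (13037 genes) and −0.498 in EpiLC against mESC-ser (12919 genes), as a description across genes that share their libraries. With the fitted correction it was 0.0320, −0.0864 and −0.120. Corrected, the medians over the 10 genes were 0.95, 2.53 and 1.39, and 6 rose and 1 fell in mESC-ser against mESC-2i, 9 rose and 1 fell in EpiLC against mESC-2i and 9 rose in EpiLC against mESC-ser.

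**Figure D3:**
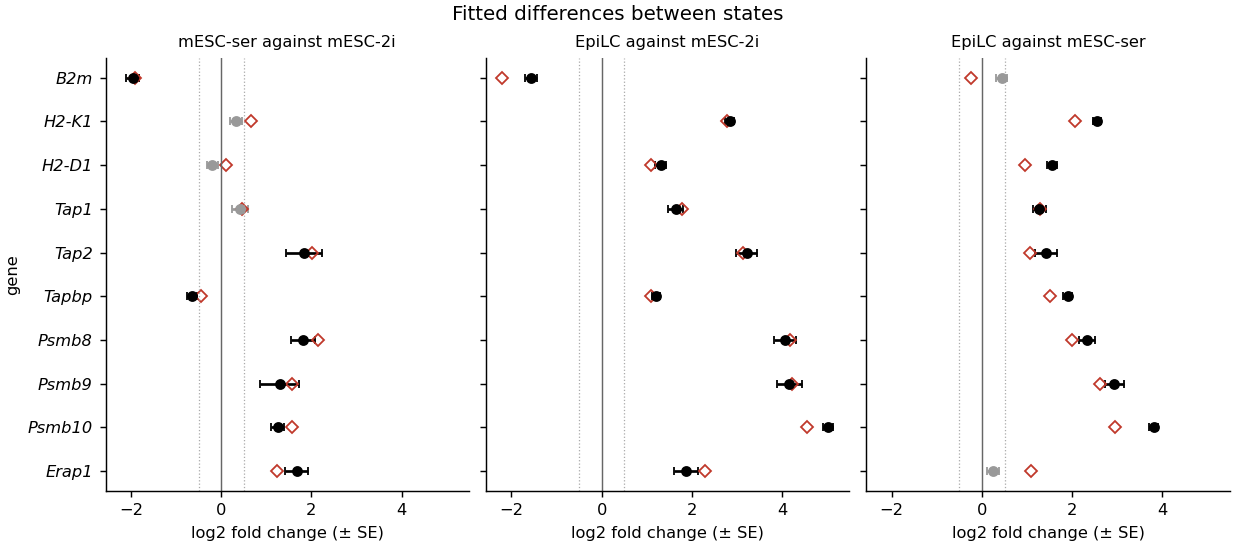
Log2 fold change of the 10 genes in the 3 comparisons, with the SE as bars, black where called and grey where not, open red diamonds for the value corrected for length and GC, and dotted lines at the fold threshold of 0.5. In EpiLC against mESC-2i every gene but B2m lies between 1.21 and 5.01, and in EpiLC against mESC-ser the diamond of B2m is at −0.24 and that of Erap1 at 1.08.

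Per length, the order of the 10 transcripts within a state also changed. In mESC-2i B2m was first at 60.6 ± 8.49 RPKM and Tapbp followed at 14.7 ± 1.04 RPKM, while Psmb10 (4.66 ± 0.209), H2-K1 (4.59 ± 0.258) and H2-D1 (4.50 ± 0.255 RPKM, SD, n = 3 each) overlapped and could not be ordered. Tap1 (0.824 ± 0.136 RPKM) came next and was separate from its neighbours, and Erap1, Tap2, Psmb8 and Psmb9 overlapped in steps at means of 0.402 to 0.143 RPKM. In mESC-ser B2m was still first at 16.1 ± 1.44 RPKM, and Psmb10 (11.6 ± 1.56) overlapped with Tapbp (9.78 ± 1.24 RPKM). In EpiLC Psmb10 was first at 152.4 ± 10.14 RPKM, Tapbp (34.5 ± 2.07) and H2-K1 (33.2 ± 1.28) overlapped, B2m (20.7 ± 2.13) came after them and Erap1 last at 1.44 ± 0.147 RPKM (SD, n = 3). Among 17943 protein-coding genes with a count, B2m ranked at the 95.9th to 96.7th percentile in the mESC-2i libraries and the 82.1st to 84.6th in mESC-ser, H2-K1 moved from the 60.3rd to 63.6th in mESC-2i up to the 90.5th in EpiLC, and Psmb10 from the 60.6th to 63.7th to the 97.7th to 97.9th.

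Around these 10 genes, 126 other genes of antigen presentation and its regulation were followed in 10 lists. Over all of them 28 rose and 28 fell of 92 tested in mESC-ser against mESC-2i, 42 rose and 32 fell of 90 in EpiLC against mESC-2i, and 43 rose and 30 fell of 96 in EpiLC against mESC-ser. Their medians were −0.15, 0.44 and 0.25, beside −0.04, −0.11 and −0.07 over all genes. With total-count scaling the last comparison turned to 35 higher and 40 lower with a median of −0.09. Of the calls of these genes named here, that of Psmb5 above and the others below, 7 were lost with the correction for length and GC. It gave log2 fold changes of −0.23 for Psmb5, 0.40 for Psme4 and −0.40 for Ifngr1 in mESC-ser against mESC-2i, −0.30 for Canx and −0.47 for Uggt1 in EpiLC against mESC-2i, and 0.04 for Psme4 and −0.29 for Rfx5 in EpiLC against mESC-ser. The correction moved other log2 fold changes named below by more than 1.5 times in fold, and these stayed called. In mESC-ser against mESC-2i Lnpep went from 2.98 to 2.17 and Nfkb1 from 1.12 to 0.51, and in EpiLC against mESC-2i Nfkb1 went from −2.60 to −1.98 and Bst2 from 3.96 to 3.23. In EpiLC against mESC-ser Lnpep went from −4.99 to −3.58, Parp14 from −2.45 to −1.55, Ifi35 from 4.46 to 3.68 and Erp29 from 1.24 to 2.12.

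Other class I heavy chain genes had both directions. In EpiLC against mESC-2i 6 rose and 3 fell of 11 tested, with a median of 1.17, and in EpiLC against mESC-ser 8 rose and 2 fell of 12, with a median of 1.28. With the length and GC correction these medians were 1.21 and 0.70. H2-Q4, a non-classical heavy chain of the Qa region, rose 1.77-fold from mESC-2i to mESC-ser, 3.80-fold from mESC-2i to EpiLC and 2.21-fold from mESC-ser to EpiLC. H2-M5 fell 9.73-fold in EpiLC against mESC-2i and 11.1-fold against mESC-ser, and Fcgrt, the heavy chain of the neonatal Fc receptor, fell 2.47-fold from mESC-2i to mESC-ser. In mESC-ser against mESC-2i 3 rose and 4 fell of 10, with a median of −0.08 (0.16 with that correction). H2-T23, whose product presents to NK cell receptors, had 2 to 11 counts in every library and was tested in none of the comparisons, and H2-M3 had 0 to 18 counts.

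The genes of peptide loading and glycoprotein folding moved little beside the 10. Of 9 tested, 2 rose and 1 fell in mESC-ser against mESC-2i (median −0.12), 5 rose and 2 fell in EpiLC against mESC-2i (0.59), and 3 rose and 1 fell in EpiLC against mESC-ser (0.40, or 0.07 with the length and GC correction). From mESC-2i to EpiLC calreticulin (Calr) and the disulfide isomerase Pdia3, both parts of the loading complex, rose 1.68-fold and 1.51-fold, Tapbpl, a tapasin relative that edits peptides, rose 2.02-fold, and calnexin (Canx), which holds newly made heavy chains, fell by 0.53 on the log2 scale (SE 0.10, edgeR adjusted p = 0.000488). Hspa5 (BiP) rose 2.01-fold and Uggt1, a sensor of folding, fell 2.23-fold in the same comparison. Erp29 fell 1.41-fold from mESC-2i to mESC-ser and rose 2.36-fold from there to EpiLC.

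The proteasome activator and assembly genes rose with the catalytic subunits in EpiLC. Of 10 tested, 8 rose and none fell in EpiLC against mESC-2i by edgeR and by DESeq2 (median 1.61, with Psme4 alone below 0 at −0.04), and 8 rose and 1 fell in EpiLC against mESC-ser (1.89). Psme1 and Psme2, the subunits of the interferon-induced PA28 cap, fell from mESC-2i to mESC-ser, with log2 fold changes of −1.09 (SE 0.16, edgeR adjusted p = 0.000148) and −1.34 (SE 0.15, adjusted p = 2.02e-05), and rose from mESC-2i to EpiLC 3.86-fold and 5.32-fold. In mESC-ser they thus went opposite to Psmb8, Psmb9 and Psmb10. Psme4, the PA200 activator, rose 1.81-fold from mESC-2i to mESC-ser and fell 1.81-fold from there to EpiLC.

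Of 7 peptidases, 1 rose and 4 fell in EpiLC against mESC-2i (median −0.99), 3 rose and 2 fell in mESC-ser against mESC-2i (0.32), and 1 rose and 4 fell in EpiLC against mESC-ser (−0.73). With the length and GC correction these medians were −0.55, −0.18 and 0.22. Lnpep, an aminopeptidase related to Erap1 that trims peptides in endosomes, rose 7.88-fold from mESC-2i to mESC-ser and fell 31.8-fold from there to EpiLC. Thop1, which destroys cytosolic peptides, rose in all 3 comparisons, by 2.06-fold, 3.32-fold and 1.66-fold. Prep, a prolyl endopeptidase, fell 3.03-fold from mESC-2i to mESC-ser and 5.17-fold to EpiLC.

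**Figure D4:**
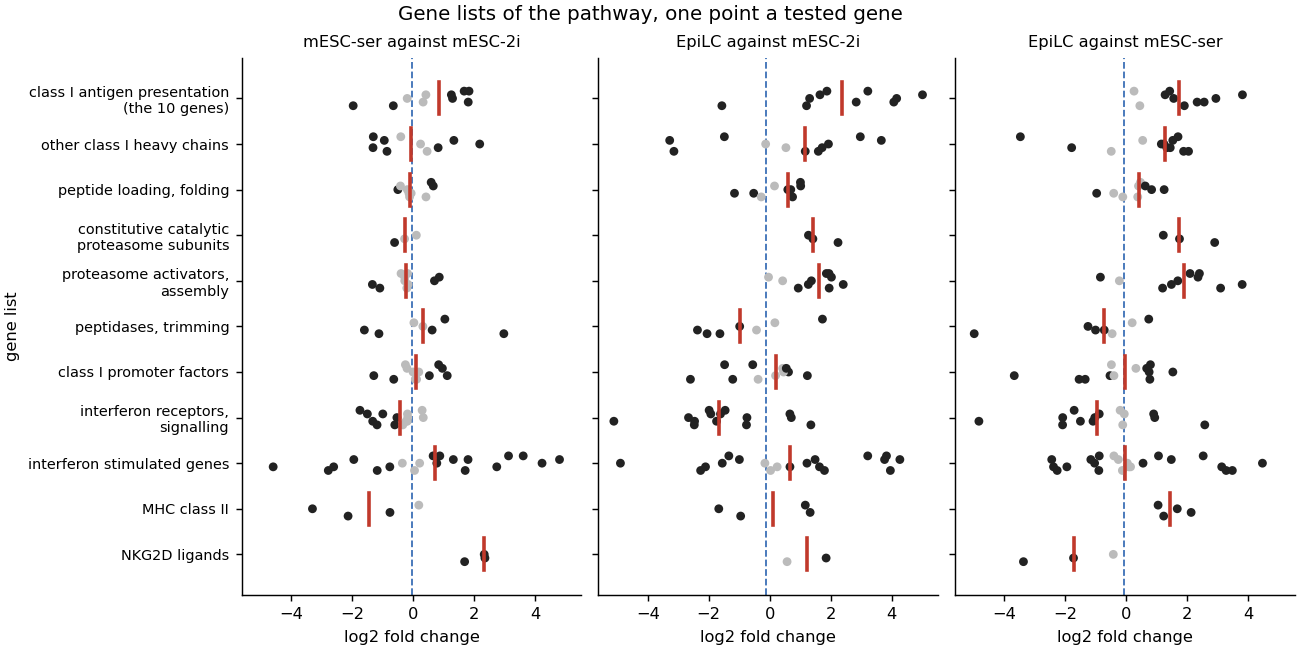
Log2 fold change of every tested gene in the 10 class I genes and 10 further lists, with black points for called genes, grey points for the others, a red bar at each list's median and a dashed line at the median of all tested genes (−0.04, −0.11 and −0.07). In EpiLC against mESC-2i the median of the class I genes is at 2.36 (1.59 over those with at least 10 counts in every library) and that of the interferon receptor and signalling genes at −1.68.

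The factors known to read the class I promoter module did not move in one direction. Of those tested 4 rose and 2 fell of 12 in mESC-ser against mESC-2i (median 0.09), 3 rose and 4 fell of 11 in EpiLC against mESC-2i (0.19), and 5 rose and 4 fell of 12 in EpiLC against mESC-ser (−0.05, or 0.23 with the length and GC correction). Nlrc5, the class I transactivator, had 2, 2 and 5 counts in the mESC-2i libraries, 12, 9 and 14 in the mESC-ser libraries and 12, 11 and 9 in the EpiLC libraries, so it passed the filter on low counts only in EpiLC against mESC-ser, where it rose by 0.77 on the log2 scale (SE 0.32, edgeR adjusted p = 0.0351). Nfkb1, which encodes the p50 subunit that binds κB sites, rose 2.17-fold from mESC-2i to mESC-ser and fell 6.07-fold from mESC-2i to EpiLC, its counts being 190 to 317, 633 to 1028 and 30 to 35. Rfx5, of the complex on the X box, fell in all 3 comparisons, with log2 fold changes of −0.63 from mESC-2i to mESC-ser, −1.21 from mESC-2i to EpiLC and −0.54 from mESC-ser to EpiLC. Rfxap, of the same complex, fell 2.44-fold from mESC-2i to mESC-ser and rose 2.88-fold from there to EpiLC, and Nfyb, which binds the Y box, rose 2.35-fold from mESC-2i to EpiLC. Irf1, the interferon response factor, rose 1.46-fold from mESC-2i to EpiLC.

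Most genes of the interferon receptors and their signalling were lower in EpiLC, where the class I genes were higher. Between mESC-2i and EpiLC 3 rose and 11 fell of 14, with a median of −1.68, in mESC-ser against mESC-2i none rose and 7 fell of 14 by edgeR, with a median of −0.43 (none rose and 6 fell by DESeq2), and in EpiLC against mESC-ser 3 rose and 8 fell of 14, with a median of −0.96. Ifngr1, a chain of the interferon gamma receptor, fell from mESC-2i to EpiLC and from mESC-2i to mESC-ser, with log2 fold changes of −0.76 and −0.60. Ifnar1 and Jak1 had log2 fold changes of 0.33 and 0.30 in mESC-ser against mESC-2i (edgeR adjusted p = 0.0105 and 0.0295), under the fold threshold. Irf9 fell 3.35-fold from mESC-2i to mESC-ser, and the 2 signalling inhibitors moved apart, Socs1 rising 2.55-fold and Socs3 falling 34.6-fold from mESC-2i to EpiLC.

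Interferon-stimulated genes outside the class I pathway moved in both directions, with more rising than falling against mESC-2i in both other states. In mESC-ser against mESC-2i 11 rose and 6 fell of 20 (median 0.72), in EpiLC against mESC-2i 10 rose and 6 fell of 19 (0.66), and in EpiLC against mESC-ser 8 rose and 8 fell of 22 (−0.05). Gbp2, a guanylate-binding GTPase, rose 18.8-fold from mESC-2i to mESC-ser, Bst2 (tetherin) rose 15.5-fold from mESC-2i to EpiLC, and Ifi35 rose 22.1-fold from mESC-ser to EpiLC. Xaf1 fell 24.1-fold from mESC-2i to mESC-ser and 29.8-fold to EpiLC, and Parp14 fell 5.46-fold from mESC-ser to EpiLC.

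MHC class II genes, which serve the exogenous pathway of professional antigen-presenting cells, were low. Only 4 of 9 passed the filter on low counts in each comparison, and of these none rose and 3 fell in mESC-ser against mESC-2i (by DESeq2 2 fell, and Cd74, the only gene above 0, had an edgeR adjusted p of 0.592), 2 rose and 2 fell in EpiLC against mESC-2i and 4 rose in EpiLC against mESC-ser. The invariant chain Cd74 had 15 to 37 counts in every library and rose 2.25-fold from mESC-2i to EpiLC. Of the ligands of NKG2D, an activating receptor of NK cells, 3 of 3 tested rose in mESC-ser against mESC-2i, 1 of 2 rose in EpiLC against mESC-2i and 2 of 3 fell in EpiLC against mESC-ser. Raet1d rose 5.12-fold from mESC-2i to mESC-ser and fell 3.33-fold from there to EpiLC.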

How the data were processed

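PolyA-enriched RNA of E14 cells was sequenced as 50-base single-end reads from TruSeq v2 libraries, a kit that does not mark strand. The authors trimmed the reads (Trim Galore 0.6.6), aligned them to mm10 (HISAT2 2.2.1) and counted them per gene (featureCounts of Subread 2.0.1), and deposited raw counts per Ensembl gene; the annotation release and the strand setting are not given in the sources used here. Of 38293 genes, 36429 (95.1%) were matched to GENCODE M21 for symbols, lengths and coordinates. The labels call the 3 libraries of a state biological replicates, and in a chi-square comparison of their counts all pairs differed by more than counting noise (1.61 to 28.3 per degree of freedom).

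CPM and RPKM (over the union of exons) were computed here with TMM factors over all 9 libraries. Orders, shares and ratios of different genes in RPKM depend on these exonic lengths. Differences were tested on the counts with edgeR 4.0.16 (R 4.3.3), filterByExpr, TMM and quasi-likelihood F-tests in each pair of states, adjusted over all tested genes; the SE is the size of the log2 fold change divided by the square root of F. The fold threshold of 0.5 follows the study's methods. The scripts were tested on simulated data. The 10 genes and all lists were chosen with earlier results of these data known. Named beside the 10 genes are fixed genes of each list and, for each list in each comparison, the top riser and the top faller by fold change that were called and averaged 100 counts or more in the higher state. One gene of a list counted here is not reported by name or value.

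Replicate numbers are shared across states. Deviations from the state means correlated between same-numbered libraries of mESC-ser and mESC-2i at 0.112 to 0.336, above 0.1 in every pair. Between differently numbered libraries of these states the values were −0.275 to 0.149. For EpiLC the same-numbered values were 0.0234 to 0.129 with mESC-2i and 0.0127 to 0.0391 with mESC-ser. The main fits, with their SE and adjusted p, did not use this pairing, and a replicate block was fitted as an alternative. Alternatives were RLE and total-count scaling, other filters, DESeq2 1.42.0, all 9 libraries in one fit, a replicate block, a spline correction for length and GC content, other thresholds and leaving out each library. The same correction of the transcript shares and ratios was added after the data were seen.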

Additional observations from a re-analysis of the deposited data

How the results depend on the processing

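For the 10 genes, 444 alternative values were computed over the 3 comparisons. Of these, 432 kept direction and side of the threshold, 3 lost the call, 6 gained it and 3 changed sign, and none of the 147 in EpiLC against mESC-2i changed. The signs that turned were those of H2-D1 in mESC-ser against mESC-2i (0.12 with the length and GC correction), and in EpiLC against mESC-ser of B2m (−0.24 with that correction) and Erap1 (−0.090 with total-count scaling), none of which had been called. Requiring at least 10 counts in every library removed Tap2, Psmb8 and Psmb9 from both comparisons with mESC-2i, where these genes are too low. The 147 values for EpiLC therefore hold none for these genes under that filter. Of the 7 genes left, 4 kept a call for mESC-ser. For EpiLC all 7 kept it, 6 higher and 1 lower. A log2 fold change over 1 left 34 of the other antigen presentation genes and 4935 of all tested genes between mESC-2i and mESC-ser. With the replicate block 7 of the 10 genes were called between mESC-2i and mESC-ser, 10 between mESC-2i and EpiLC and 8 between mESC-ser and EpiLC, as without it, and the block changed no call of these genes. The correction for length and GC content, applied to the transcript shares after the data were seen, turned the order of mESC-ser and EpiLC in the Psmb8 share (1.91% and 2.29%) and took the Psmb10 share in EpiLC to 48.4%. Depth limits Tap2, Psmb8 and Psmb9 in mESC-2i, where some libraries hold under 10 counts.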
